A study of Homo sapiens with 28 samples.

Results

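The mitochondrially encoded genes are the 37 genes of the deposited count tables that lie on chrM, out of 62703 genes listed. They were chosen by chromosome alone and comprise 2 rRNAs, 13 protein-coding genes and 22 tRNAs, packed into a circle of 16569 bases in the hg38 build. Human mitochondrial DNA is transcribed from both strands into long precursors, which are cut into single RNAs largely at the tRNAs that sit between the other genes. The rRNAs build the mitochondrial ribosome, and the mRNAs encode core subunits of complex I, complex III, complex IV and ATP synthase, the machinery of oxidative phosphorylation. The remaining subunits of those complexes, and the factors that copy, transcribe and process mitochondrial DNA, are encoded in the nucleus and imported.

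RNA-seq was performed on 24 libraries in 8 groups of 3, from 2 human colorectal cancer cell lines. MDST8 cells were profiled as wild type (WT) and as 5 TWIST1 knockout lines, here called clones 1.1, 2.2, 3.2, 3.5 and 3.6 after their library names, each edited with CRISPR-Cas9 and grown from a single cell. Their titles name the first as TG1, the next as TG2 and the other 3 alike as TG3, so 3.2, 3.5 and 3.6 share this label and are told apart by library name and replicate number. LoVo cells were profiled in 3 libraries labelled TWIST1 shRNA (replicates 1 to 3) and 3 labelled shRNA control (replicates A to C). The sample titles name these groups TWIST1 KD and Control. The knockdown used lentiviral vectors. A supplemental figure of the paper gives its LoVo comparison as TWIST1 knockdown against wild-type cells, so whether the control cells carried a vector is not settled here. The paper lists 3 TWIST1 shRNA target sequences, and that figure names shRNA-1. Whether replicates 1 to 3 carried the same sequence is not settled here either. TWIST1 is a transcription factor of the epithelial-mesenchymal transition. Each clone derives from 1 edited cell, so an effect of the edit cannot be told apart from an earlier difference between cells. Nothing in the sources says that replicates were separate cultures, so p-values measure only the spread between these libraries. Total counts ran from 16567606 to 22217009 per library.

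TWIST1 itself had 0 counts in every LoVo control library and 73 to 93 counts in each library of the labelled knockdown, which goes against the labels. Every LoVo direction below is therefore that of the labelled groups. In MDST8, TWIST1 had 797 to 1034 counts in WT and 553 to 1195 in the clones, and an edited gene can still be transcribed, so its count checks no label. Of 8 colon epithelial markers, CDH1, CDX2 and CEACAM5 were at 0 in MDST8 WT, where the list summed to 71.9 to 77.3 RPM (counts scaled to a library of 1e+06). In LoVo the list summed to 8024 to 8215 RPM in the control group and 4655 to 5307 RPM in the shRNA group.

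The libraries were made from RNA captured by oligo-dT, so it matters where a mitochondrial RNA ends. Of the 13 coding sequences, 6 stop after only the first 1 or 2 bases of a stop codon, which the added poly(A) tail completes. Their last 21 bases in hg38 are shown, with those of MT-ND6, the single mRNA that lies on the other strand, and the capitals mark the bases annotated as stop codon.
MT-ND1, plus strand, chrM:4242-4262: cagcattccccctcaaaccTA
MT-ND2, plus strand, chrM:5491-5511: cttttatactaataatcttaT
MT-CO3, plus strand, chrM:9970-9990: ccatctattgatgagggtctT
MT-ND3, plus strand, chrM:10384-10404: aaggattagactgaaccgaaT
MT-ND4, plus strand, chrM:12117-12137: tcattaccgggttttcctctT
MT-CYB, plus strand, chrM:15867-15887: acaaaatactcaaatgggccT
MT-ND6, minus strand, chrM:14149-14169: gagattgctcgggggaatAGG

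Some members share bases with a neighbour, and fragments over 2 genes were left uncounted. The longest overlap is that of MT-ATP8 with MT-ATP6, 46 bases in which the capitals mark the start codon of MT-ATP6 and the stop codon of MT-ATP8.
MT-ATP8 and MT-ATP6, plus strand, chrM:8527-8572: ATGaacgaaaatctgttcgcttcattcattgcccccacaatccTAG
The strand was not used in counting either. RNA antisense to a member therefore cannot be told apart from the member itself, which bears most on MT-ND6 and on the tRNAs of its strand.

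Nuclear copies of mitochondrial DNA can share reads with the members. The longest stretches of identity belong to copies on chromosome 1, and a window of 60 bases shows how close they are, with the 3 bases that differ in capitals.
MT-ATP6, chrM:8642-8701: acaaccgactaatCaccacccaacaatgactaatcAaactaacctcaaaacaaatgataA
MTATP6P1, chr1:633811-633870: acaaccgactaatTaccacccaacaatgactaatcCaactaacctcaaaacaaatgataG
The pseudogene MTATP6P1 matched MT-ATP6 over 681 bases at 98.53% identity, MTND2P28 matched MT-ND2 over 1044 bases at 98.37%, and MTCO1P12 matched MT-CO1 over 1543 bases at 98.64%. Of 404 listed pseudogenes of mitochondrial genes, 77 had any count. The same 3 pseudogenes held 98.9% of the 165418 counts in that class over the 24 libraries. Reads that map to more than 1 place were not counted, so the counts of MT-ATP6, MT-ND2 and MT-CO1 and of these copies are uncertain by the amount they share. The count of MTATP6P1 was 8.03% ± 1.30 (SD, n = 3) of that of MT-ATP6 in MDST8 WT, 8.44% ± 0.323 in the LoVo control group and 6.54% ± 0.0164 in the LoVo shRNA group. MTND2P28 stood at 6.25% to 7.60% of MT-ND2 over the 8 group means.

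The 37 genes took between 2.38% and 10.9% of the total count of a library. MDST8 WT had the lowest mean share, with 2.49%, 2.398% and 3.05% in replicates A to C (2.65% ± 0.354, SD, n = 3). Clone 3.6 had 2.43%, 2.38% and 3.28%, a mean 1.02 times that of WT, and its libraries overlapped those of WT. Clone 2.2 had 3.35%, 3.21% and 3.23%, clone 1.1 had 3.68%, 3.24% and 3.61%, and clone 3.5 had 4.37%, 3.89% and 4.16%. All 3 libraries of each of these 3 clones lay above all WT libraries, at 1.23, 1.33 and 1.56 times the WT mean. Clone 3.2 had 4.02%, 3.48% and 2.80%, so that its mean of 3.43% was 1.30 times that of WT while 1 of its libraries fell below the highest of WT.

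In LoVo the share was 3.96%, 3.49% and 3.62% in control replicates A to C and 10.9%, 6.24% and 5.47% in shRNA replicates 1 to 3. The groups did not overlap, and the ratio of their means was 2.04. Replicate 1 of the shRNA group stood apart from the other two, and without it the mean of that group was 5.86%. Exact 95% Clopper-Pearson intervals of these shares were 0.0130 to 0.0281 percentage points wide, so counting error is small beside the spread between libraries. Since a share is bounded by all other RNA in the cell, and bulk libraries cannot tell fewer cells of a kind from less RNA per cell, no share is a copy number. The shares are values over members chosen with results known, and no test was run on them.

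**Figure D1:**
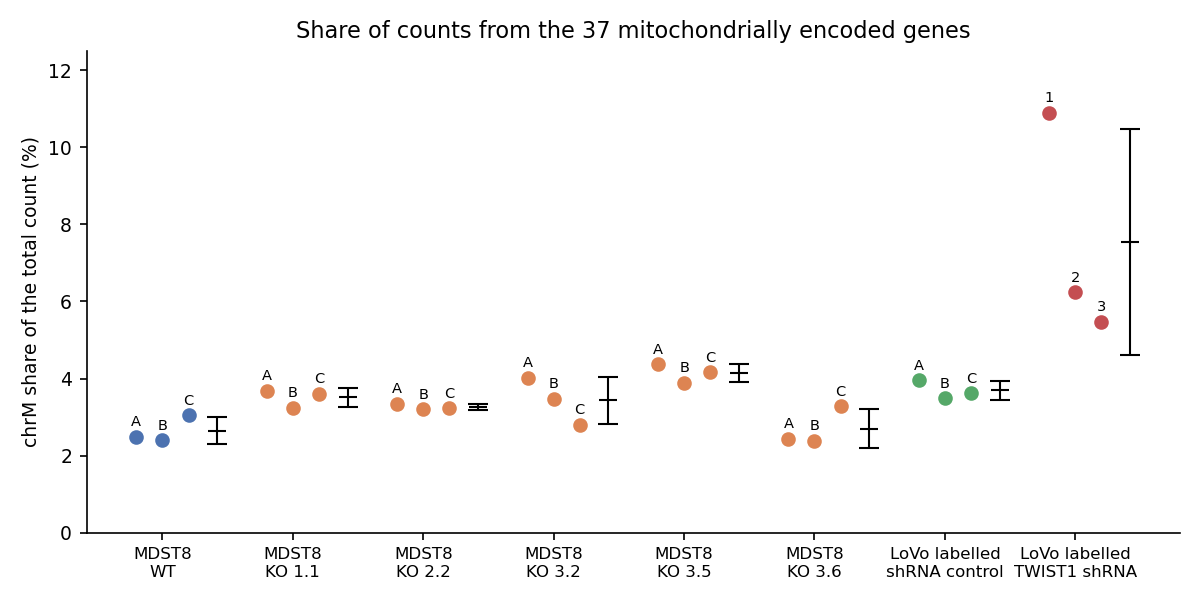
Share of the total count that came from the 37 chrM genes, in percent, for each of the 24 libraries. Points are libraries, named by their replicate letter or number, and the bar beside them is the mean ± SD of the 3 libraries of a group. The LoVo libraries labelled TWIST1 shRNA lie between 5.47% and 10.9%, above the other 21 libraries.

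Messenger and ribosomal RNA moved apart in LoVo. The 13 mRNAs together took 2.27% of the total count in the control group and 6.91% in the shRNA group, 3.05 times as much. The 2 rRNAs took 1.41% ± 0.0574 of the total in the control group and 0.605% ± 0.243 in the shRNA group. Expressed within the chrM count, rRNA made up 37.2% to 39.0% in the control libraries and 7.74% to 8.16% in the shRNA libraries. All 18 MDST8 libraries lay between 4.66% and 7.83% on that measure. The control LoVo libraries thus stood apart from the other 21 in the rRNA share of the chrM count. The shRNA libraries stood apart in the mRNA share of the total count. Of the total count, rRNA took 0.424% to 0.880% in the shRNA libraries, above all MDST8 libraries (at most 0.274%).

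**Figure D2:**
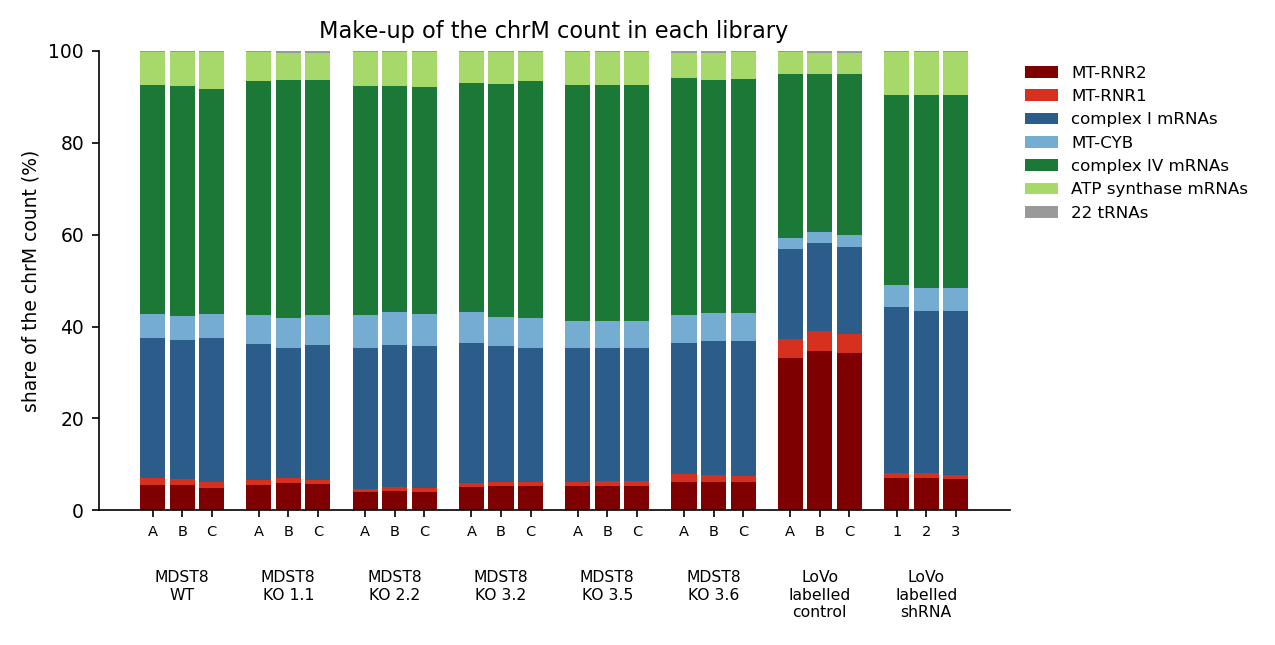
Make-up of the chrM count in each of the 24 libraries, in percent of the counts on the 37 genes, stacked by rRNA, by the complex that the mRNAs encode and by the 22 tRNAs together. In the LoVo control libraries the rRNAs take 37.2% to 39.0%, and in every other library at most 8.16%.

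MT-RNR2 encodes the 16S rRNA of the large ribosomal subunit and lost the most RPM of the chrM genes in the LoVo shRNA group. It was counted 223267, 253793 and 227305 times in the control libraries and 143206, 73814 and 64828 times in the shRNA libraries, or 13158, 12149 and 12414 RPM against 7598, 4455 and 3691 RPM. Every shRNA library lay below every control library, including replicate 1, whose chrM share was the highest. The log2 fold change was -1.34 (SE 0.18, adjusted p = 3.48e-06, edgeR's quasi-likelihood test, Benjamini-Hochberg adjusted). MT-RNR1, the 12S rRNA of the small subunit, stood at 1592, 1491 and 1520 RPM in the control libraries and 1207, 640 and 545 RPM in the shRNA libraries. Its groups did not overlap either, and its log2 fold change was -1.02 (SE 0.19, adjusted p = 0.000153).

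RNAs of the nucleus that carry no poly(A) tail were read beside the rRNAs, from a list of 14 such as replication-dependent histone and small non-coding RNAs. They summed to 29.8 to 35.0 RPM in the LoVo control libraries and 22.9 to 26.3 RPM in the shRNA libraries, with RN7SK, RN7SL2 and RPPH1 at 0 in both groups. Only 4 of the 14 passed the filter on low values, and 2 of these were called lower (H2AC6 at -1.65 and H1-2 at -0.67 on the log2 scale). Of all genes tested in LoVo, 26.1% were called lower, and 4 genes are too few to set against that share. In MDST8 WT the list summed to 14.2 to 18.5 RPM. The part of poly(A) capture in the rRNA difference was not tested.

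The mRNAs rose together in LoVo. Of the 22 members that passed the filter, 17 were higher and 2 lower in the shRNA group, where 26.6% of all 14270 genes tested were called higher and 26.1% lower. A call needed a log2 fold change beyond 0.58 in size and an adjusted p under 0.05. All 13 mRNAs and 4 of 7 tRNAs were higher, and both rRNAs were lower. One of the 4, MT-TE, reached the filter only through the shRNA group. The median log2 fold change of the 22 was 1.92, against 0.01 over all genes tested. Each of the 13 mRNAs was higher in every shRNA library than in any control library. The share of all genes that separate in this way is not given here, so this count has no background.

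Complex I, the NADH dehydrogenase, takes 7 of the mRNAs. MT-ND4 stood at 2394, 2045 and 2104 RPM in the control libraries and 13835, 7791 and 6891 RPM in the shRNA libraries. MT-ND5 and MT-ND4 both changed by 2.05 on the log2 scale, MT-ND4L by 2.24 and MT-ND3 by 2.29. MT-ND1, which follows the rRNAs on the genome, changed least of the 7, by 1.11 (SE 0.18), and MT-ND2 changed by 1.74. MT-ND6, the single mRNA transcribed from the light-strand promoter, stood at 371, 315 and 348 RPM in the control libraries and 2097, 1185 and 1063 RPM in the shRNA libraries. Its log2 fold change of 2.00 (SE 0.18, adjusted p = 2.84e-08) lay within the range of the mRNAs of the other strand. Strand was not used in counting, so these counts can include RNA antisense to MT-ND6.

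Cytochrome c oxidase, complex IV, held the extremes among the mRNAs. MT-CO3 stood at 1415, 1184 and 1320 RPM in the control libraries and 12271, 6853 and 6294 RPM in the shRNA libraries. Its change of 2.62 (SE 0.19, adjusted p = 1.31e-09) was the largest of the 13. MT-CO1, the catalytic subunit, stood at 9481, 8064 and 8468 RPM against 21749, 12886 and 11065 RPM and changed least of the 13, by 0.74 (SE 0.17, adjusted p = 0.000949). MT-CO2 lay between them at 1.32. MT-CYB, the cytochrome b of complex III, stood at 999, 858 and 905 RPM against 5194, 3019 and 2667 RPM, a change of 1.90. The ATP synthase subunits MT-ATP6 and MT-ATP8 changed by 1.95 and 1.94.

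**Figure D3:**
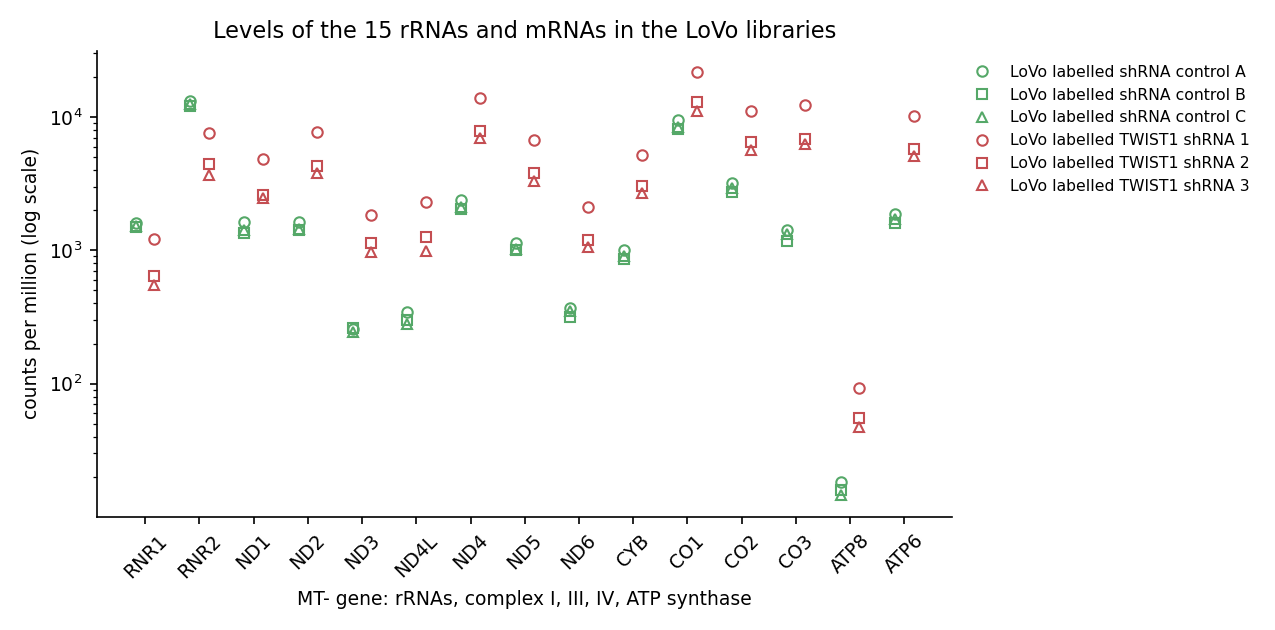
RPM, on a log axis, for the 2 rRNAs and 13 mRNAs in the 6 LoVo libraries, each symbol a library. Red symbols (labelled TWIST1 shRNA) lie below the green ones (labelled shRNA control) for MT-RNR1 and MT-RNR2 and above them for all 13 mRNAs, from MT-CO1 at a log2 fold change of 0.74 to MT-CO3 at 2.62.

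The first and last places among the mRNAs were nearly fixed. Levels of different genes were compared as RPM per kilobase of annotated length. MT-CO1 had the highest level of the 13 mRNAs in 21 of 24 libraries and MT-CO2 in the other 3, which were those labelled TWIST1 shRNA. MT-ATP8 had the lowest level in all 24. In MDST8 WT, MT-CO1 stood at 4998 ± 645 RPM per kilobase (SD, n = 3), MT-CO2 at 4004 ± 480, MT-CO3 at 3441 ± 351 and MT-ATP6 at 2891 ± 556. The SD ranges of neighbours in this order overlapped, although the order was the same in each WT library. At the other end were MT-ND5 at 567 ± 107, MT-ND6 at 533 ± 132 and MT-ATP8 at 38.4 ± 12.6. MT-ATP8 is the shortest mRNA and loses the fragments that reach into MT-ATP6. Per kilobase of its own unshared bases it stood at 49.3 RPM, which does not restore those fragments.

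In the LoVo shRNA group the leading mRNAs were MT-CO2 at 11289 ± 4216 RPM per kilobase, MT-CO3 at 10807 ± 4211, MT-ATP6 at 10259 ± 4047 and MT-CO1 at 9879 ± 3707. These 4 did not differ beyond their spread in level, although their order was the same in each of the 3 libraries. MT-CO3 ranked behind MT-ATP6 in the control libraries (1666 ± 149 against 2527 ± 208) and ahead of it in the shRNA libraries. In the clones MT-CO1 was always first, at 5167 RPM per kilobase in clone 3.6 and 8100 in clone 3.5.

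The place of the 16S rRNA in that order set the LoVo control group apart. MT-RNR2 stood at 8065 ± 335 RPM per kilobase there, above every mRNA and 1.44 times MT-CO1. In MDST8 WT it stood at 898 ± 63.2, or 0.181 times MT-CO1, and the 5 clones had ratios from 0.135 to 0.207. In the LoVo shRNA group the ratio was 0.339 (0.330 to 0.346 over the 3 libraries). The ratio of MT-RNR2 to MT-RNR1 counts was 8.15 to 8.27 in the LoVo control libraries and 6.30 to 6.97 in the shRNA libraries, while in MDST8 WT it was 3.81 to 4.24. Clones 1.1, 2.2, 3.2 and 3.5 all lay above WT on this ratio, with lowest values of 5.32, 4.39, 5.55 and 4.76, and clone 3.6 overlapped WT at 4.02 to 4.25.

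The replicate spread in the LoVo shRNA group ran through the whole set of genes. The coefficient of variation of RPM over the 3 libraries had a median of 0.394 among the 15 rRNAs and mRNAs (0.346 to 0.460). In the other 7 groups that median lay between 0.0298 (clone 2.2) and 0.191 (clone 3.6). Genes of at least 100 RPM had a median of 0.0543 in the same shRNA libraries, and 90% of them lay below 0.118. Replicate 1 was at 1.87 times the mean of replicates 2 and 3 in the median of the 15 genes, from 1.74 for MT-ND3 to 2.06 for MT-ND4L. Replicate 2 was at 1.06 to 1.28 times replicate 3. Among 2153 nuclear genes of at least 100 RPM, replicate 1 was at a median of 0.942 times the other two, and 90% of these genes lay between 0.809 and 1.09.

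The spread all but disappeared once a gene was read as a share of the chrM count. On that scale the 15 genes had a median coefficient of variation of 0.0168 in the shRNA libraries, and replicate 1 was at 0.934 to 1.11 times the mean of the other two. MT-RNR1 and MT-RNR2 followed replicate 1 upwards like the mRNAs, at 2.04 and 1.87 times replicates 2 and 3. The libraries therefore differed in how much chrM RNA they held and hardly in its make-up. Without replicate 1, 15 members were called higher and 2 lower, with MT-CO1 at 0.41 and MT-TC at 0.43 no longer past the threshold, MT-CO3 at 2.28 and MT-RNR2 at -1.68.

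**Figure D4:**
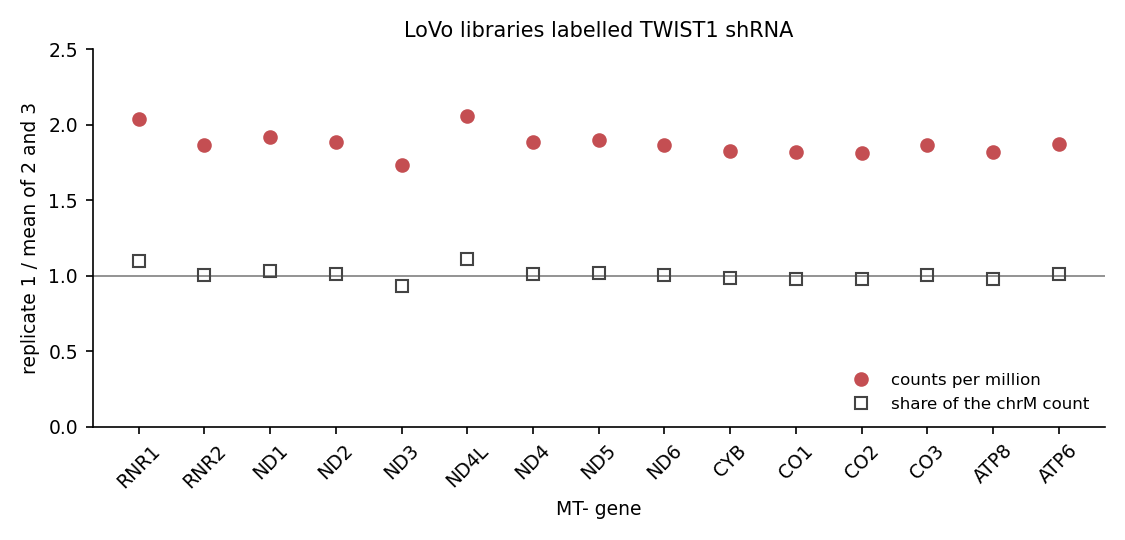
Replicate 1 of the LoVo group labelled TWIST1 shRNA divided by the mean of replicates 2 and 3, for the 2 rRNAs and 13 mRNAs, in RPM (filled circles) and as a share of the chrM count (open squares). The grey line marks equal values. The circles lie between 1.74 and 2.06 and the squares between 0.934 and 1.11.

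Comparing each gene within the chrM count separates a change of one RNA from a change of all of them. In LoVo 13 members were higher and 4 lower in that fit, where 52.7% of all genes tested were called in either direction. Nuclear genes kept their own library size in that fit, so this share is of changes in level and is not on the members' scale. MT-RNR2 (-2.29, SE 0.04) and MT-RNR1 (-2.00, SE 0.05) were the lowest, followed by the tRNAs MT-TN (-1.05) and MT-TP (-0.77). MT-CO3 was the highest mRNA at 1.67 (SE 0.05), and 10 of the 13 mRNAs were called. MT-CO1 turned slightly down on this scale (-0.21), and neither MT-ND1 (0.15) nor MT-CO2 (0.37) reached the fold threshold. Shares within a total are not independent, and the fall of the rRNAs raises the share of every other RNA by construction. Relative to the 13 mRNAs alone, 6 members were higher and 7 lower: MT-CO3 (1.09), MT-ND3 (0.77) and MT-ND4L (0.68) remained higher with the tRNAs MT-TE, MT-TL1 and MT-TY, while MT-CO1 (-0.79) and the tRNAs MT-TC, MT-TH, MT-TN and MT-TP were lower with both rRNAs. On that scale MT-ND1 (-0.43) and MT-CO2 (-0.21) changed sign without being called. Nuclear genes kept their own library size in this fit also, so these counts have no share over all genes on the same scale.

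In MDST8 the changes against WT were smaller in the median, and 87 of 105 (21 tested members in 5 clones) lay above 0. All 105 rest on the same 3 WT libraries and are not separate observations. They include MT-TH, which was above 0 in all 5 clones and reached the filter only through clones. The share of all genes above 0 is not given here. In clone 3.6, 12 lay above 0 and 9 below. Clone 3.5 had 16 of 21 tested members higher and 0 lower, where 11.2% of all 13706 genes tested were called higher and 7.25% lower. Clone 1.1 had 6 higher (12% of all genes) and 0 lower (7.49%), clone 2.2 had 4 higher (8.05%) and 0 lower (6.64%), and clone 3.2 had 3 higher (10.9%) and 0 lower (6.09%). Clone 3.6 had 1 higher (15.3%) and 1 lower (11.7%). The higher member of clone 3.6, MT-TH, is counted in every clone and reached the filter only through clones, as set out with the tRNAs. The median log2 fold change of the 21 members was 0.69 in clone 3.5, 0.40 in clone 1.1, 0.37 in clone 3.2, 0.28 in clone 2.2 and 0.02 in clone 3.6, against -0.01 to 0.00 over all genes.

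MT-CYB was the mRNA called in most clones. It stood at 1296, 1249 and 1608 RPM in WT, 2386, 2097 and 2349 in clone 1.1, 2391, 2264 and 2307 in clone 2.2, 2669, 2214 and 1864 in clone 3.2, and 2560, 2294 and 2485 in clone 3.5. All libraries of these 4 clones lay above those of WT. The log2 fold changes were 0.75, 0.77, 0.73 and 0.87, each with an SE of 0.09. In clone 3.6 it stood at 1481, 1458 and 2015 RPM and overlapped WT, with a change of 0.26 that did not pass the fold threshold.

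The complex I genes nearest to MT-CYB on the genome showed a like pattern over the clones. MT-ND6 stood at 253, 229 and 359 RPM in WT and changed by 0.73 in clone 1.1, 0.65 in clone 2.2 and 0.63 in clone 3.5 (SE 0.12 each, all called), by 0.54 in clone 3.2 and by 0.09 in clone 3.6, neither of which passed. MT-ND5 was called in the same 3 clones, at 0.70, 0.75 and 0.73. Here also the counts over MT-ND6 can include RNA antisense to it. MT-ND4 and MT-ND4L were called in no clone, with changes from -0.06 to 0.52 and from -0.22 to 0.45. MT-CO1, MT-CO2, MT-CO3, MT-ATP6, MT-ND1, MT-ND2 and MT-ND3 were called higher in clone 3.5 alone, and differences between the clones are tested below.

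MT-ATP8 was the single member called lower in any clone among the 21 that passed the filter on low values. With no filter, tRNAs of few counts were called lower also, MT-TM in clone 1.1, MT-TQ in clone 3.2 and MT-TV, MT-TI, MT-TM, MT-TE and MT-TT in clone 3.6, and leaving out any of 4 single libraries added MT-TL1 in clone 3.6. MT-ATP8 was counted 123, 121 and 211 times in WT and 55, 58 and 88 times in clone 3.6, so these libraries did not overlap. The change was -1.30 (SE 0.25, adjusted p = 1.82e-05, edgeR's quasi-likelihood test). In the other 4 clones MT-ATP8 was counted 116 to 238 times, with changes from -0.17 to 0.26. Its partner MT-ATP6, which shares the transcript, changed by -0.35 in clone 3.6 and did not pass the fold threshold. Only 161 bases of MT-ATP8 are unshared, and fragments that also reach MT-ATP6 were not counted. The part of this counting in the gap between them was not tested.

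The rRNAs followed the mRNAs less closely in the clones. MT-RNR2 stood at 1387, 1309 and 1505 RPM in WT and 2282, 2076 and 2194 RPM in clone 3.5, the single clone in which it was called (0.69, SE 0.08). It lay above WT in all libraries of clone 1.1 also (1921 to 2080 RPM), where its change of 0.56 fell short of the fold threshold. In clone 2.2 it was at 1265 to 1332 RPM with a change of -0.08, and in clones 3.2 and 3.6 it changed by 0.38 and 0.25. MT-RNR1 was called in no clone, with changes of 0.05, -0.28, -0.12, 0.42 and 0.22 in clones 1.1, 2.2, 3.2, 3.5 and 3.6. As a share of the chrM count the rRNAs stood at 6.13% to 7.02% in WT, below that in every library of clone 2.2 (4.66% to 5.08%) and above it in every library of clone 3.6 (7.51% to 7.83%).

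Within the chrM count few members were called in the clones. Clones 1.1, 2.2, 3.2, 3.5 and 3.6 had 2, 2, 0, 3 and 2 members called in either direction, where 19.5%, 14.7%, 16.9%, 18.4% and 27% of all genes were called. Nuclear genes kept their own library size in this fit, so these shares are of changes in level and are no like-for-like background. MT-TH was higher in 4 of them and MT-ATP8 was lower in clones 1.1 (-0.59), 3.5 (-0.70) and 3.6 (-1.32). MT-RNR1 was lower in clone 2.2 (-0.61) and MT-TP in clone 3.5 (-0.90). In clone 3.2, 0 members were called by edgeR's quasi-likelihood test, its largest changes being 0.68 for MT-TH and -0.55 for MT-TL1. Shifts below the fold threshold fall outside these counts. MT-CYB changed by 0.31, 0.45, 0.33, 0.18 and 0.23 in clones 1.1, 2.2, 3.2, 3.5 and 3.6, each with an adjusted p under 0.05 in that test. It made up 5.19% to 5.26% of the chrM count in the WT libraries and 5.85% to 7.15% in the clone libraries.

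**Figure D5:**
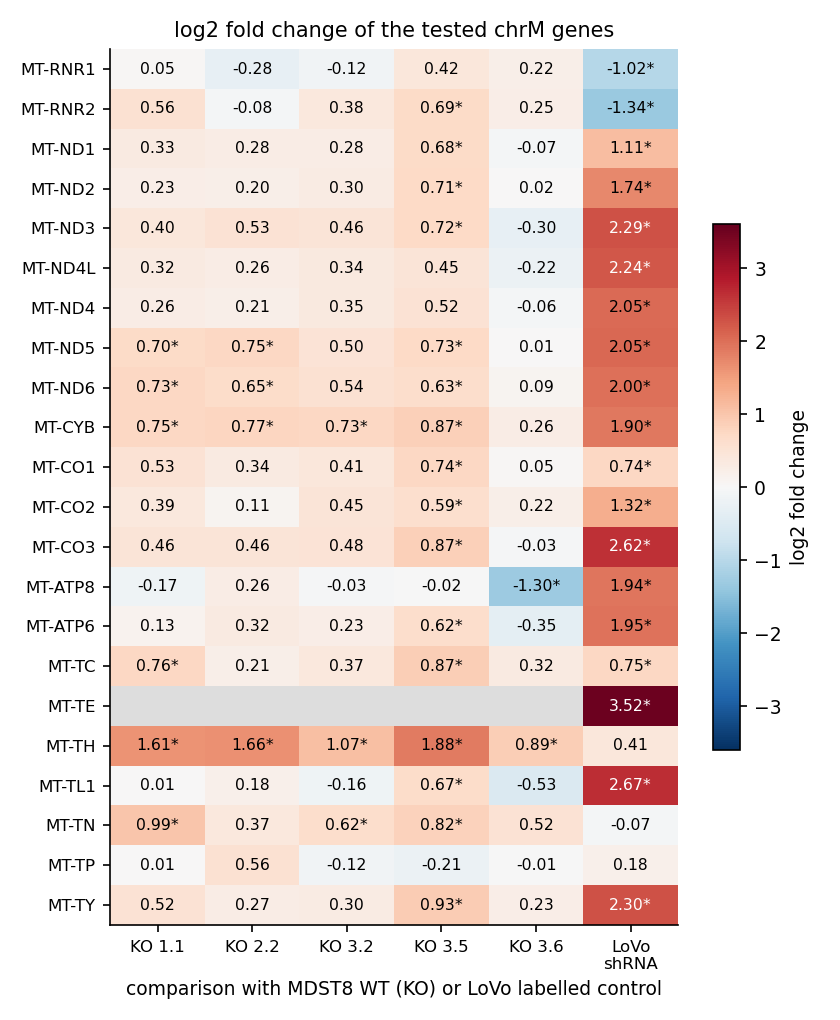
log2 fold change of each tested chrM gene in the 5 knockout clones against MDST8 WT and in the LoVo libraries labelled TWIST1 shRNA against those labelled shRNA control. A star marks a log2 fold change beyond 0.58 in size with an adjusted p under 0.05 by edgeR's quasi-likelihood test, and grey marks a gene below the filter on low values. The LoVo column runs from -1.34 for MT-RNR2 to 2.67 for MT-TL1, beside MT-TE at 3.52, which was tested only because of its level in the shRNA group, and the clone 3.5 column holds the most stars of the 5 clones.

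The tRNAs gave few counts. All 22 together made up at most 0.457% of the chrM count. MT-TF, MT-TV, MT-TI, MT-TQ, MT-TM, MT-TW, MT-TA, MT-TS1, MT-TD, MT-TK, MT-TG, MT-TR, MT-TS2, MT-TL2 and MT-TT passed the filter in neither cell line, and these 15 had 0 to 63 counts per library. Whether a change in them could be called hung on the filter. MT-TI, for isoleucine, had 7, 8 and 5 counts in the LoVo control libraries and 63, 26 and 12 in the shRNA libraries, and it passed the filter and was called higher once any 1 control library was left out. With no filter its change was 2.25 (SE 0.43), and MT-TQ, MT-TM, MT-TS1, MT-TD and MT-TK were called higher with it. Of those that passed, MT-TN, MT-TC, MT-TY, MT-TE and MT-TP lie on the strand of MT-ND6, and MT-TL1 and MT-TH on the other.

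MT-TH, the tRNA for histidine just beyond the end of MT-ND4, was called higher in all 5 clones at low counts. It had 4, 10 and 12 counts in WT and 16 to 45 in the 15 clone libraries, and no clone overlapped WT. Its mean was 0.451 RPM in WT and above 1 RPM in clones 1.1, 2.2 and 3.5 alone (1.37, 1.42 and 1.62), so it entered the test through the groups where it was high and its call was favoured by the filter. The log2 fold changes were 1.61, 1.66, 1.07, 1.88 and 0.89 in clones 1.1, 2.2, 3.2, 3.5 and 3.6, with SEs of 0.34 to 0.38. The call was lost in clone 3.2 without WT replicate A, and in clone 3.6 without WT replicate A or clone replicates A or C, leaving 2 members higher in clone 3.2 and 0 in clone 3.6. In LoVo it had 16 to 17 counts in the control group and 13 to 36 in the shRNA group, a change of 0.41 that was not called. MT-TN, the tRNA for asparagine, was called in clones 1.1 (0.99), 3.2 (0.62) and 3.5 (0.82) from 687 to 725 counts in WT, and changed by -0.07 in LoVo.

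MT-TE, the tRNA for glutamic acid between MT-ND6 and MT-CYB, gave the widest gap in LoVo, but it was tested only because it was high in the shRNA group, at a mean of 3.72 RPM against 0.298 RPM in the control group. It had 6, 9 and 2 counts in the control libraries and 94, 57 and 48 in the shRNA libraries, a change of 3.52 (SE 0.40), and it passed the filter in LoVo alone. MT-TL1, which passed through both groups, is a leucine tRNA between MT-RNR2 and MT-ND1. It had 50, 52 and 41 counts against 475, 220 and 225, a change of 2.67 (SE 0.25). MT-TY changed by 2.30 and MT-TC by 0.75, both called. MT-TP, at 0.18, was not.

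The 5 clones differed from each other in every tested member. An F test over the clones called 21 of 21 at an adjusted p below 0.05, from 7.88e-13 for MT-ND3 to 0.0132 for MT-TH, where 81% of all genes tested differed. MT-ND3 ranged from a log2 fold change of -0.30 in clone 3.6 to 0.72 in clone 3.5, and MT-CO3 from -0.03 to 0.87 in the same clones. MT-RNR1 was lowest in clone 2.2 and highest in clone 3.5.

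The LoVo effect differed from the mean effect of the 5 clones for 18 of 21 members, where 50.7% of all genes were called in either direction. It was higher for 14, led by MT-TL1 (2.61, SE 0.29), MT-ATP8 (2.16, SE 0.30) and MT-CO3 (2.15, SE 0.18), with MT-ND6 at 1.44 (SE 0.21). It was lower for MT-RNR2 (-1.72, SE 0.18), MT-RNR1 (-1.10, SE 0.19), MT-TH (-1.03, SE 0.47) and MT-TN (-0.76, SE 0.19). For MT-CO1 (0.30), MT-TC (0.22) and MT-TP (0.11) no difference was called. The contrast depends on the LoVo labels, which the TWIST1 counts go against. With the LoVo groups turned, 2 members were higher and 18 lower, where 50% of all genes were called. Of these, MT-RNR2 (0.99) and MT-RNR1 (0.97) were the higher ones, MT-CO3 (-3.06) was the lowest, MT-TL1 was at -2.70 and MT-ND6 at -2.52, and MT-TH (-1.83) and MT-TN (-0.59) kept their direction.

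Between the control groups, LoVo libraries labelled shRNA control against MDST8 WT, 11 of 21 members were called, where 64.5% of all genes were. The rRNAs led, with MT-RNR2 at 3.32 (SE 0.15) and MT-RNR1 at 2.30 (SE 0.16), and MT-TP, MT-ATP8, MT-TH, MT-TC and MT-TN were higher also, from 0.93 to 2.43. MT-CO3 (-0.89), MT-ND4 (-0.60), MT-ND4L (-0.61) and MT-TL1 (-0.97) were lower in LoVo. The other mRNAs changed by -0.43 to 0.48. Cell line cannot be told apart from culture and library preparation here.

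Nuclear genes for the same complexes were more often lower than higher in LoVo. Of 78 listed nuclear subunits of complexes I to V, 77 were tested, 3 were higher and 39 lower in the shRNA group, where 26.6% of all genes were called higher and 26.1% lower, with a median of -0.59 where all genes had 0.01. Complex IV had 9 of 11 lower, led by COX6A1 (-1.44), COX7B (-1.43) and COX7C (-1.34). Complex III had 6 of 9 lower, with its core subunit UQCRC2 at -1.82, and all 4 subunits of complex II were lower, SDHA at -1.33. ATP synthase had 9 of 17 lower, with its catalytic subunit ATP5F1B at -1.73, and complex I had 11 lower and 3 higher of 36, NDUFS7 at -1.30, a share lower that is close to that of all genes.

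Set side by side, the 13 mitochondrial mRNAs summed to 2.06 to 2.52 times the RPM of the 74 nuclear subunits of the same 4 complexes in the LoVo control libraries and 8.33 to 18.2 times in the shRNA libraries. For complex IV the mean ratio went from 7.31 ± 0.854 to 31.3 ± 14.8, and for complex III from 0.540 ± 0.0542 to 3.38 ± 1.52. In MDST8 WT the ratio over the 4 complexes was 3.75 to 4.92, and it was 5.29 to 6.26 in clone 1.1, 5.11 to 5.43 in clone 2.2, 4.57 to 6.71 in clone 3.2, 6.02 to 6.96 in clone 3.5 and 4.07 to 5.81 in clone 3.6. Clones 1.1, 2.2 and 3.5 did not overlap WT. Of the nuclear subunits themselves, 0 were higher and 1, 2, 1, 2 and 3 lower of 76 tested in clones 1.1, 2.2, 3.2, 3.5 and 3.6 by edgeR's quasi-likelihood test, where 8.05% to 15.3% of all genes were called higher and 6.09% to 11.7% lower. NDUFS6, an accessory subunit of complex I, was lower in all 5, from -0.60 to -1.07.

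The nuclear genes that serve mitochondrial DNA and RNA were called in both directions. Of 13 genes of mitochondrial DNA transcription and replication, 2 were higher and 3 lower in LoVo, below the shares over all genes (26.6% and 26.1%), among them the exonuclease MGME1 (0.94) and the transcription termination factor MTERF1 (-0.92). Their summed level was 681 to 711 RPM in the control libraries and 690 to 710 RPM in the shRNA libraries, overlapping ranges. Of 22 genes of RNA processing and stability, 2 were higher and 7 lower, the latter close to the share over all genes, with PRORP, which cuts the 5′ end of mitochondrial tRNAs, at -1.63, FASTKD1 at -1.38 and the RNA-degrading PNPT1 at -1.23. Of 6 tested regulators of mitochondrial biogenesis, 2 were higher and 2 lower, with ESRRA at -1.48 and GABPB1 at 0.72.

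Markers of cell identity moved with the LoVo groups. Of the 8 colon epithelial markers, 6 were lower and 0 higher in the shRNA group (26.1% and 26.6% of all genes), with CEACAM5 at -5.27, VIL1 at -4.28 and CDX2 at -3.04. Of 8 markers of other cell types, 3 were tested, DES (6.89) and COL1A1 (4.39) higher and ACTA2 (-1.23) lower. DES was tested only through the group where it was high, at 0.0182 RPM in the control group and 3.07 RPM in the shRNA group. The list summed to a median of 11.2 RPM in the control group and 73.96 RPM in the shRNA group, with no overlap between libraries. HBB was at 0 in both groups, ALB in the control group and PTPRC in the shRNA group. The part of these differences in the chrM results was not tested.

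ChIP-seq for TWIST1 added nothing on chrM. The deposited lists hold 338877 peaks for MDST8 and 333621 for LoVo, all on 24 nuclear chromosomes and 0 on chrM. Each came from 1 library, and a list that names no chrM peak does not show whether chrM was searched.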

How the data were processed

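RNA-seq was performed on poly(A)-selected, directional libraries of MDST8 and LoVo cells. For each gene the authors deposited a raw count of fragments, made with Trim Galore 0.6.6, HISAT2 2.1.0, SAMtools 1.6 and featureCounts 2.0.0 on GENCODE genes of hg38. Per the file headers, strand was not used, and fragments on several genes or reads with several alignments were not counted. The deposited tables also hold each gene's exon length in bp, another value used for levels per kilobase. For each ChIP peak the authors deposited a −log10 p-value from MACS2 2.2.7.1. Only the peaks' chromosomes were read.

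Samples were grouped by their labels. RPM is a count scaled to a library total of 1e+06. A gene entered a fit if exp(mean(log(RPM + 1))) - 1 was at least 1 across that cell line's libraries, giving 13706 genes for MDST8 and 14270 for LoVo. Counts were normalized by TMM (factors 0.970 to 1.04) and groups were tested in edgeR 4.0.16 (quasi-likelihood F test, p-values adjusted over all genes tested after Benjamini and Hochberg), using 18 MDST8 libraries in one fit, 6 LoVo libraries in another, and all 24 for contrasts across lines. The fit within the chrM count replaced the library size of chrM genes by the library's chrM total, and nuclear genes kept their own. No column was left unmatched. On simulated data for clone 1.1, with 200 changed genes among 13706, 99% of raised and 94% of lowered genes were called, and for LoVo, with 14270 genes, 93% and 92%. These 200 genes were all nuclear and were changed by one set fold. These rates therefore do not cover chrM members or smaller changes. In the same simulations 1 chrM member, MT-CYB, was changed by a log2 fold change of 1. The fit within the chrM count gave it 0.82 for clone 1.1 and 0.87 for LoVo, below the set value. In that fit 1 of 21 members was called for clone 1.1 and 1 of 22 for LoVo. Pseudogenes were aligned with blastn 2.17.0. Sequences came from the hg38 reference. R 4.3.3, limma 3.58.1, DESeq2 1.42.0 and Python 3.11.15 were used, limma and DESeq2 for alternatives only.

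The members set to be named in each comparison were those with the highest and the lowest change, those of opposite sign to the median, MT-RNR1, MT-RNR2 and MT-ND6. The text does not give all of these. Among those left out are the lowest level changes in clone 3.2 (MT-TL1, -0.16) and clone 3.5 (MT-TP, -0.21). MT-TL1 in clone 3.6 (-0.53) was left out also. Others were named after their values were seen. The members and lists were chosen with earlier results of these data known. Replicate letters of the MDST8 groups did not pair libraries. Over 45 pairs of libraries with the same letter in different groups, the correlation of deviations had a median of -0.0179, and 3 were over 0.1. Over 90 pairs with different letters the median was 0.00355, and 5 were over 0.1. The alternatives were other normalizations, filters, tests and definitions of the share, the replicate block, and leaving out each library in turn.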

Additional observations from a re-analysis of the deposited data

Results flagged for a closer look

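The clones differed from each other in 21 of the 21 tested chrM genes by an F test over the 5 clones, against 81% of all genes tested. The LoVo effect differed from the mean effect of the clones in 18 of 21 genes, against 50.7% of all genes. The difference of the effects was -1.72 for MT-RNR2 and -1.10 for MT-RNR1 on the log2 scale, both rRNAs being lower in the LoVo libraries labelled TWIST1 shRNA and called lower in no clone. It was 1.44 for MT-ND6 and 2.61 for MT-TL1, each higher in LoVo by more than in the clones. It was -0.76 for MT-TN and -1.03 for MT-TH, which were called higher in 3 and 5 clones and were not called in LoVo, MT-TH having entered the test only through clones in which it was high. With the LoVo groups turned, since the TWIST1 counts go against their labels, 20 of 21 differed, against 50% of all genes. No group had 4 or more libraries, so single libraries were not tested as outliers.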

How the results depend on the processing

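No member called against its control group changed direction under an alternative. Members that were not called did, all at 0.29 or less in size: 4, 3, 1 and 8 members in clones 1.1, 3.2, 3.5 and 3.6 and 2 in LoVo, where MT-TP went from 0.18 to -0.15 without shRNA replicate 1. Relative to the 13 mRNAs, MT-ND1 and MT-CO2 changed sign uncalled, and MT-CO1, higher in level, was lower. With the LoVo groups turned, chosen after seeing the data, the difference from the clones was 0.97 for MT-RNR1, 0.99 for MT-RNR2, -2.70 for MT-TL1 and -2.52 for MT-ND6, each reversed. Without a filter on low values, clones 1.1 and 3.2 each had 1 member lower in place of 0, clone 2.2 had 7 higher in place of 4, and clone 3.6 had 0 higher and 6 lower in place of 1 and 1. With edgeR's own filter, clones 1.1 and 3.6 had 1 and 5 lower. With limma on log2(count + 1), clone 3.6 had 2 higher, and with only the 2 groups compared in the fit it had 0. With every gene scaled to the chrM total, clone 3.6 had 1 member called within that total in place of 2. The protein-coding genes alone took 3.26%, 3.09% and 3.86% of the total in clones 1.1, 2.2 and 3.5 and 2.27% in the LoVo control group. The causes were not tested. Log2 values without scaling to library size moved the median of all genes in clone 3.6 to 0.13.

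Leaving out each library in turn gave 6 to 9, 3 to 5, 2 to 6, 12 to 17 and 0 to 2 members higher in clones 1.1, 2.2, 3.2, 3.5 and 3.6, 15 to 18 in LoVo, 1 to 2 lower in clone 3.6 and 2 to 2 in LoVo. The 6 in clone 3.2 came without WT replicate C or clone 3.2 replicate C, and added MT-CO3, MT-ND5 and MT-ND6. Within the chrM total the counts were 1 to 3, 1 to 2, 0 to 2, 2 to 3 and 1 to 3 in the clones and 17 to 19 in LoVo. They left the main count by more than 1.5 times without WT C, 1.1 B or 1.1 C in clone 1.1 (1 each), WT A or 2.2 A in clone 2.2 (1 each), WT A or 3.2 A (1 each) and WT C or 3.2 B (2 each) in clone 3.2, and 3.6 B in clone 3.6 (1). In clone 3.6, 2 members were higher without its replicate B, and 2 lower without WT A or B or its own A or C, MT-TL1 joining MT-ATP8. Among the clones 20 to 21 differed. Mean shares ran over 2.45% to 2.77% in WT, 3.42% to 3.65%, 3.22% to 3.29%, 3.14% to 3.75%, 4.03% to 4.27% and 2.41% to 2.86% in the clones, and 3.56% to 3.79% and 5.86% to 8.57% in the LoVo groups.

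With the replicate letter as a block, clone 3.5 had 16 members higher, and no count of calls differed from that without the block. The LoVo groups carry letters and numbers, so no pairing was possible there. The 15 tRNAs below the filter rest on few counts: in LoVo 6 of them were called higher with no filter and 2 with edgeR's own, and MT-TI also without any 1 control library.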
